A study of Mus musculus with 6 samples.

Results

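The 10 genes described here encode Wnt ligands (Wnt6 and Wnt10a), Wnt receptors (Fzd2 and Fzd4), the R-spondin Rspo3, secreted Wnt inhibitors (Sfrp1, Sfrp2, Sfrp4 and Sfrp5) and the Wnt target Axin2. They were taken by gene symbol from the 32285 genes counted in single-cell RNA-seq libraries of mouse dorsal skin, and all 10 were found. Each library held tdTomato+ cells sorted by FACS from 1 mouse, after tamoxifen at PD17 had switched on the reporter through Cdh5-CreERT2, which is driven from the VE-cadherin gene. Telogen libraries 1 and 2 (PD20) and anagen libraries 1 and 2 (PD32) came from wild-type tdTomato;Cdh5-CreERT2;Krt14-H2BGFP mice of C57BL/6;CD1 background, and are called WT below. Alk1 KO libraries 1 and 2 came from Alk1 flox/flox;tdTomato;Cdh5-CreERT2 mice of C57BL/6 background at PD25, in telogen. Their titles name Alk1 KO but their genotype field reads wild type, and they were grouped by title, so every KO value below rests on the titles. The KO and telogen mice therefore differed in age, time since tamoxifen, strain and the Krt14-H2BGFP transgene as well as in Alk1. The paper also describes the KO data as a previous dataset of its authors, and the WT cells as sorted to be Krt14-H2BGFP-negative. These differences cannot be told apart. Cre acts where Cdh5 is or was active, and the sort held endothelial cells along with several other cell types. The paper describes the immune cells and fibroblasts among them as contaminants without Cdh5, so presence in the sort does not show Cdh5 activity.

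Wnt ligands are lipid-modified secreted proteins that bind Frizzled receptors together with Lrp5 or Lrp6. This halts the destruction of beta-catenin, which then activates target genes with Tcf and Lef factors. Axin2 is one of these targets and feeds back to restrain the pathway. R-spondins keep Frizzled receptors on the cell surface by way of Lgr receptors and the ubiquitin ligases Rnf43 and Znrf3. Sfrp proteins carry a Frizzled-like domain and bind Wnt ligands outside the cell. In skin, Wnt signalling is best known for starting hair follicle growth at the passage from telogen to anagen, and in vessels Fzd4 is known as the receptor of the Norrin ligand. Perineurial cells form the sheath around nerve bundles.

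Of 27418 barcodes, 20941 had 200 to 5000 genes and under 10% mitochondrial UMIs, with 1713 to 5106 kept cells and 9.53e+06 to 3.94e+07 kept UMIs per library. The median depth of kept cells was 4371 and 4742 UMIs in the KO libraries and 4630 to 6935 in the WT libraries. Between 1 and 8 cell barcodes were shared by any pair of libraries. Cells were clustered without the 94 Wnt pathway genes of the lists used here, and populations were named from other marker genes. Perineurial-like cells (2645) carried all 10 of their listed markers in each WT library and 9 or 10 in the KO libraries, among them Krt19, Slc2a1 and Cldn1. They made up 17.3% and 18.2% of telogen, 7.16% and 15.7% of anagen and 4.67% and 2.81% of KO cells. Their summed perineurial markers reached 5029 and 5053 CPM (counts per fixed total, here a gene's UMIs scaled by all UMIs of the population in that library) in telogen, 5013 and 5611 in anagen, and 3119 and 3426 in the KO libraries. The cells named fibroblast-like differed far more, since their 8 fibroblast markers summed to 56897 and 63814 CPM in telogen but to 5542 and 8798 CPM in the KO libraries. KO values for fibroblast-like cells are given with this limit.

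The targeted gene Acvrl1, which encodes Alk1, was present in every library. In endothelial cells it stood at 156 and 134 CPM in telogen, 138 and 158 CPM in anagen, and 119 and 96.8 CPM in the KO libraries. In artery-like cells it was 315 and 277 CPM in telogen against 312 and 251 CPM in the KO libraries. Perineurial-like cells held 67 and 58 Acvrl1 UMIs in telogen and 4 and 0 in the KO libraries. These counts are not scaled by depth, which was 3842379 and 4981759 UMIs in telogen but 315494 and 180799 in the KO libraries. The Acvrl1 difference in perineurial-like cells was not called by edgeR (log2 fold change -0.92 ± 0.81 SE, adjusted p = 0.459). Acvrl1 was lower in KO capillary-like cells (log2 fold change -0.88 ± 0.20 SE, adjusted p = 0.00608), pericyte-like cells (-1.88 ± 0.44, adjusted p = 0.049) and fibroblast-like cells (-1.21 ± 0.37, adjusted p = 0.0311), and was not called in the other populations tested. The libraries read the 3′ end of transcripts, and the deleted exons are not given in the sources used here, so these levels do not check the deletion.

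The 10 genes lie on 8 chromosomes. Wnt6 (chr1:74771892-74785322, plus strand) and Wnt10a (chr1:74791516-74804179, plus strand) are neighbours with 6193 bases between them in the mm10 (GRCm38) annotation. Fzd2 lies at chr11:102604396-102608058 (plus), Axin2 at chr11:108920349-108950783 (plus), Fzd4 at chr7:89404355-89413134 (plus) and Rspo3 at chr10:29452416-29535867 (minus). Among the inhibitors, Sfrp1 lies at chr8:23411502-23449632 (plus), Sfrp2 at chr3:83766321-83774316 (plus), Sfrp4 at chr13:19623104-19632994 (plus) and Sfrp5 at chr19:42197971-42202252 (minus). Counts were of whole genes, so nothing is known here of single exons or isoforms.

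Promoter sequences from RefSeq (GRCm38.p6, 250 bases before to 50 after the start) were found for 5 of the 10 genes, Axin2, Fzd4, Sfrp2, Sfrp5 and Wnt6. The 3 below are shown because Sfrp5 and Wnt6 were the inhibitor and ligand highest in perineurial-like cells and Axin2 is the pathway's own target. Each is written 5′ to 3′ on the gene's strand, from chr19:42202203-42202502 (minus) for Sfrp5, chr1:74771642-74771941 (plus) for Wnt6 and chr11:108920099-108920398 (plus) for Axin2. A search on both strands for CTTTGA, a core of the sites bound by Tcf and Lef factors (TCAAAG on the other strand), found it in none of the 5 windows, and 16.0% of 32851 RefSeq promoters of the same length held it. Capitals were kept for matches, so no letter is in capitals.
Sfrp5: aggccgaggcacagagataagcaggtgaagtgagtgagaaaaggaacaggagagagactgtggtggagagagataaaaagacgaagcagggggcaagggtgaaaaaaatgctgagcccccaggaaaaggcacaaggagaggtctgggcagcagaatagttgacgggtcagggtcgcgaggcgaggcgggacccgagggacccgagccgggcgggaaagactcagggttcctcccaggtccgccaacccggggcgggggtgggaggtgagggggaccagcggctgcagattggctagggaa
Wnt6: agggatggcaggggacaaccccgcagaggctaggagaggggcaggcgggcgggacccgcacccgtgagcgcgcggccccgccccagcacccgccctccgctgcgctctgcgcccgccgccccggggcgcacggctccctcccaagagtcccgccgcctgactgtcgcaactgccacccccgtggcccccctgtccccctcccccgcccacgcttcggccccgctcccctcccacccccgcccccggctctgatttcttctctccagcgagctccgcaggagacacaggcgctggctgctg
Axin2: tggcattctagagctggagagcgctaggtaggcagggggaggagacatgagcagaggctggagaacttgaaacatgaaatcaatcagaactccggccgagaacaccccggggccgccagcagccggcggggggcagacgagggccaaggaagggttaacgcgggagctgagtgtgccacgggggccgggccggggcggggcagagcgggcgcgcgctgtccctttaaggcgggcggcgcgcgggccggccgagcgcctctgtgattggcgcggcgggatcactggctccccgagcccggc

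The ligands were concentrated in perineurial-like cells. These cells held 92.4% of the 8130 Wnt6 UMIs and 92.3% of the 981 Wnt10a UMIs of the kept WT cells. Wnt6 averaged 509 ± 63.4 CPM there (SD, n = 4), with 537 and 547 in telogen and 414 and 537 in anagen. All 4 values lay above those of every other population. Schwann-like cells came next at 204 ± 7.97 CPM, then fibroblast-like cells at 21.9 ± 11.6 CPM, and neither step in this order overlapped between libraries. Wnt6 was near 0 in endothelial cells, with 37 UMIs over the 4 WT libraries. Wnt10a followed the same order. It averaged 61.9 ± 10.8 CPM in perineurial-like cells, with 50.7 and 67.8 in telogen and 55.1 and 74.0 in anagen. In Schwann-like cells its values were 21.3 and 30.4 CPM in telogen and 0 in both anagen libraries, which held 8 and 10 such cells.

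**Figure D1:**
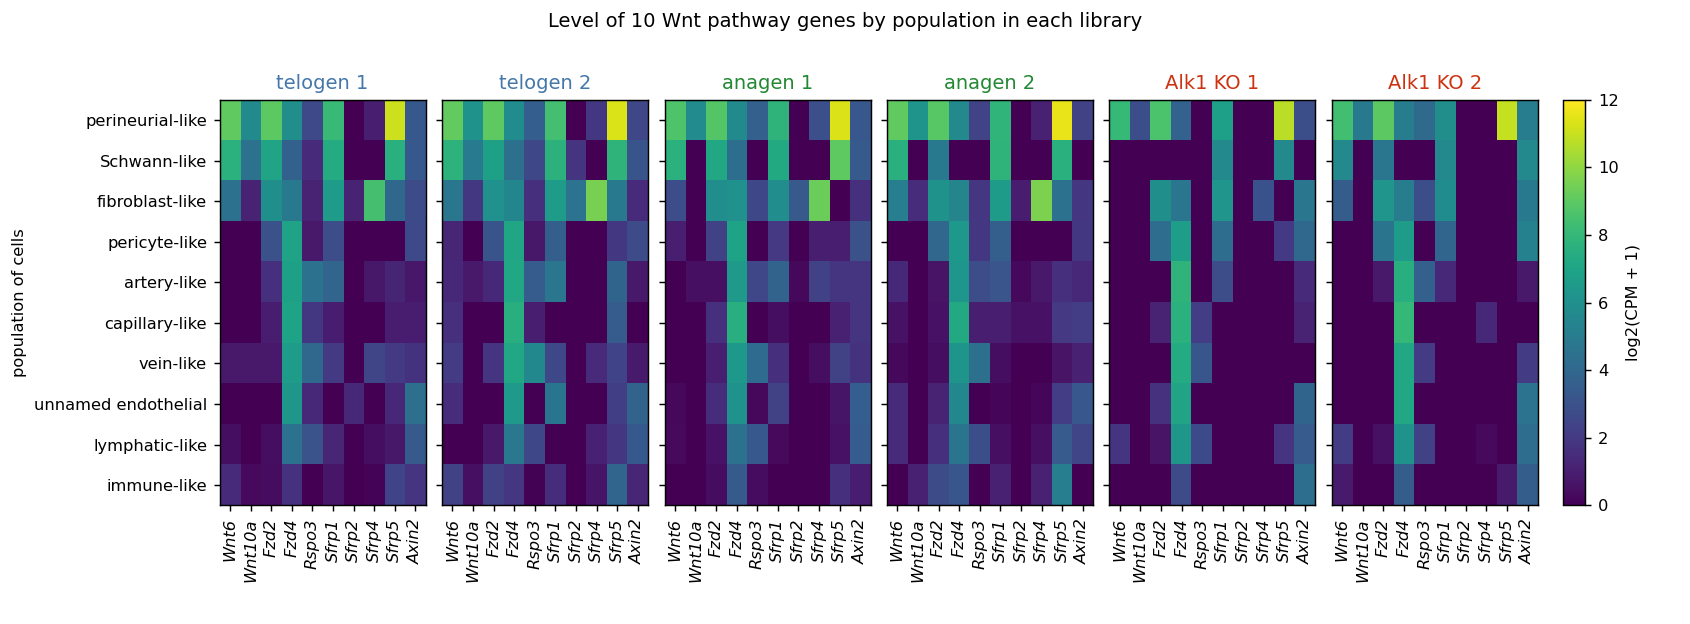
Level of the 10 genes (columns) in 10 populations of cells (rows) of each of the 6 libraries (panels), as colour on a log2(CPM + 1) scale from 0 to 12. Sfrp5, Wnt6, Fzd2, Sfrp1 and Wnt10a are brightest in the perineurial-like row, Sfrp4 is bright only in the WT fibroblast-like row, and Fzd4 runs through the vascular rows.

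Of the receptors, Fzd2 was concentrated in perineurial-like cells, and Fzd4 was spread over many populations and highest in those of vessels. Fzd2 averaged 483 ± 33.9 CPM in perineurial-like cells (SD, n = 4), which held 89.0% of its 7921 WT UMIs, with 503 and 517 in telogen and 442 and 469 in anagen. Schwann-like (102 ± 51.2 CPM) and fibroblast-like cells (63.8 ± 4.29 CPM) followed and overlapped each other. In endothelial cells Fzd2 had 59 WT UMIs. Endothelial cells made up 26.5% to 77.6% of the kept cells of a WT library. Fzd4 was spread more widely than Fzd2, and endothelial cells held 70.0% of its 6673 WT UMIs. It was highest in capillary-like cells (161 ± 29.1 CPM), followed by pericyte-like (115 ± 21.5), artery-like (104 ± 28.3) and vein-like cells (98.0 ± 29.3), and each of these overlapped the next. Perineurial-like cells had a steady 53.8 ± 4.58 CPM, and lymphatic-like cells had 23.5 ± 2.19 CPM, below every blood vessel population and every perineurial-like library.

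Rspo3, a secreted enhancer of Wnt signals, was low in the populations compared and highest among them in vein-like cells. Unnamed cells outside them reached 656 CPM in anagen 2 and 66.1 CPM in anagen 1, as given further below. Its vein-like values were 15.8 and 47.6 CPM in telogen and 17.1 and 20.5 CPM in anagen (mean 25.3 ± 15 SD, n = 4). Artery-like (10.5 ± 7.33 CPM), perineurial-like (8.12 ± 3.80 CPM) and lymphatic-like cells (6.94 ± 1.64 CPM) overlapped in this order. Within the vein-like cells most Rspo3 came from the group led by Htr2b and Klk8, with 52.4 and 113 CPM in telogen and 44.7 and 76.6 CPM in anagen. In the group led by Selp, Sele and Ackr1, the Rspo3 values were 1.11, 17.3, 9.25 and 8.16 CPM.

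The secreted inhibitors differed in the cells that held them. Sfrp5 was almost restricted to perineurial-like cells, which held 97.2% of its 38646 WT UMIs. Its level there was 2202 and 2532 CPM in telogen and 2673 and 3152 CPM in anagen (mean 2640 ± 395 SD, n = 4). Schwann-like cells had 283 ± 157 CPM, and fibroblast-like (16.4 ± 12.1 CPM) and immune-like cells (13.6 ± 14.5 CPM) overlapped far below. Sfrp1 was shared more widely among the cells of the nerve and the dermis. Perineurial-like (264 ± 53.6 CPM) and Schwann-like cells (189 ± 33.8 CPM) overlapped, fibroblast-like cells had 87.9 ± 20.1 CPM and artery-like cells had 15.1 ± 7.24 CPM. In arteries, Sfrp1 came mainly from the group led by Gja5 and Gkn3, genes of larger arteries, with 39.7 and 48.1 CPM in telogen and 37.6 and 24.0 CPM in anagen.

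Sfrp4 belonged to fibroblast-like cells, which held 97.9% of its 4548 WT UMIs. It stood at 347 and 752 CPM in telogen and 637 and 796 CPM in anagen (mean 633 ± 202 SD, n = 4). In perineurial-like cells its 4 values lay between 1.04 and 6.64 CPM, and Schwann-like cells held no Sfrp4 UMI. Sfrp2 had 93 UMIs in all, of which 65 lay in the fibroblast-like cells of telogen 2. The other fibroblast-like values of Sfrp2 were 1.29 CPM in telogen 1, 9.12 in anagen 1 and 0.918 in anagen 2, so its level rests on 1 library.

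Axin2, the feedback target, was thinly spread, with 527 WT UMIs. Among the populations compared, endothelial cells of no named type had the highest mean (13.3 ± 5.08 CPM). Lymphatic-like (8.34 ± 2.53 CPM) and perineurial-like cells (6.64 ± 2.47 CPM) followed, and each overlapped the next. Artery-, vein- and capillary-like cells had 1.41 to 1.71 CPM on average. Among endothelial groups, Axin2 was highest in the one led by Lrat and Apcdd1 (30.5 ± 16.9 CPM), with 53.8 and 32.0 CPM in telogen and 18.6 and 17.5 CPM in anagen. Apcdd1 is itself a Wnt target. It was among the genes left out of the clustering.

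UMIs of the same genes outside perineurial-like cells were compared with cells that should lack them. Immune-like WT cells, with 39063692 UMIs, held 110 Wnt6, 403 Sfrp5, 104 Fzd2 and 53 Sfrp1 UMIs. The perineurial-like cells held 7516, 37552, 7050 and 3973 of them. In Schwann-like cells the counts were 228 Wnt6, 259 Sfrp5, 131 Fzd2 and 202 Sfrp1 UMIs, and these 4 counts stood in other proportions than in perineurial-like cells. The fibroblast-like counts were 167 Wnt6, 140 Sfrp5, 467 Fzd2 and 672 Sfrp1 UMIs. Free RNA and doublets were not tested as sources of these UMIs.

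Contrasts between populations within the 4 WT libraries are given as a description, since the cells had been grouped by other genes of the same cells. In each contrast a gene can pass the filter on low counts through 1 population alone. The counts of members called are therefore not read against the shares of all genes. Between perineurial-like and endothelial cells, 63.6% of all genes tested were called (adjusted p under 0.05 and fold over 1.3) and 31.8% were called higher in perineurial-like cells. Of the 8 members tested, 6 were called and 5 were higher. Their log2 differences were 9.82 ± 0.35 (SE) for Sfrp5, 9.46 ± 0.39 for Wnt6, 9.41 ± 0.29 for Wnt10a, 8.72 ± 0.17 for Fzd2 and 5.84 ± 0.19 for Sfrp1. Fzd4 was lower (-0.71 ± 0.12), and Rspo3 and Axin2 were not called. Against fibroblast-like cells, 52.4% of genes were called and 25.6% were higher in perineurial-like cells, and 7 of 9 members were called, with 6 higher. Sfrp5 (6.77 ± 0.32), Wnt10a (4.67 ± 0.27), Wnt6 (4.11 ± 0.19) and Fzd2 (2.49 ± 0.10) led, Rspo3 (1.31 ± 0.38) and Sfrp1 (1.16 ± 0.12) were smaller, and Sfrp4 was lower by far (-8.39 ± 0.26). The Rspo3 call was lost without telogen 2 (0.89, adjusted p = 0.153) and with DESeq2 (adjusted p = 0.0652).

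Lymphatic-like and blood endothelial cells differed in the reverse sense for receptor and target. Blood endothelial here means artery-, vein- and capillary-like cells, without the endothelial cells of no named type, whose Axin2 mean (13.3 CPM) was above that of lymphatic-like cells (8.34 CPM). Here 47.7% of all genes were called, and 3 of 4 members tested. Axin2 was higher in lymphatic-like cells (log2 difference 2.17 ± 0.31 SE), with 9.67, 8.98, 10.1 and 4.60 CPM against 1.33, 0.584, 2.49 and 1.69 CPM in telogen 1, telogen 2, anagen 1 and anagen 2. Fzd4 (-2.39 ± 0.12) and Sfrp1 (-3.70 ± 0.49) were lower in lymphatic-like cells. Rspo3 was not called (-0.71 ± 0.33, adjusted p = 0.0825).

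Most single perineurial-like cells held Sfrp5. After each WT cell was thinned to 1500 UMIs, 79.2% of 2406 perineurial-like cells held an Sfrp5 UMI (exact 95% interval 77.5 to 80.8), 53.8% held Wnt6, 48.1% Fzd2, 31.0% Sfrp1, 8.10% Wnt10a and 7.65% Fzd4. The intervals cover counting error only, and 104 shallower cells were left out. In immune-like cells, which should lack these genes, the shares were 0.891% for Sfrp5, 0.462% for Wnt6 and 0.363% for Fzd2 of 3032 cells. Median depths before thinning were 5302.5 UMIs in perineurial-like and 11896.5 UMIs in immune-like cells, and the unthinned Sfrp5 shares were 89.2% and 3.08%. For comparison, 20.7% of thinned capillary-like cells held Fzd4 and 29.2% of thinned fibroblast-like cells held Sfrp4. Most fibroblast-like cells held no Sfrp4 UMI at this depth.

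In the WT libraries Wnt6 was found more often in cells that also held Sfrp5. In telogen 1, 53.7% of cells with an Sfrp5 UMI and 38.7% of cells without one held Wnt6. The shares were 59.7% and 41.9% in telogen 2, 44.5% and 27.6% in anagen 1, and 57.5% and 38.6% in anagen 2, so the 4 WT libraries had the same order. KO 1 had it too, with 28.3% of 46 cells and 10.7% of 28 cells, and KO 2 had the other order, with 41.9% of 31 cells and 46.2% of 13 cells. Between cells with and without Sfrp1 the Wnt6 shares were close in 3 of these libraries (51.3% and 50.3%, 56.8% and 55.7%, 53.2% and 54.5%) and 50.6% and 36.4% in anagen 1. Between cells with and without Fzd2 the Wnt6 shares were 54.2% and 47.0%, 57.2% and 54.9%, 43.3% and 37.7%, and 55.4% and 53.1%. Between cells with and without Sfrp5 the Sfrp1 shares were 30.9% and 27.0%, 40.2% and 28.1%, 28.9% and 18.4%, and 30.8% and 22.0%. Both lists run from telogen 1 to anagen 2, so the order was not particular to Sfrp5 and Wnt6. Wnt10a was rarer in cells with Wnt6 in anagen 1 (7.63% and 9.09%). These shares are a description of cells that share a library and a sort.

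Perineurial-like cells were not uniform in their Wnt genes. Among the 6 groups of over 100 WT cells, Sfrp5 ranged from 942 ± 207 CPM (SD, n = 4) in the group led by Lgals7 and Lum to 4348 ± 1101 CPM in the group led by Isg15 and Ifi47. The group led by the chemokine genes Ccl2 and Cxcl1 was also low, at 1498 ± 370 CPM, and these 2 groups lay below the other 4 in every WT library. Wnt6 varied less, from 428 ± 33.4 CPM in the Ccl2 group to 627 ± 66.1 CPM in the group led by Snhg20. Wnt10a was lowest in the Ccl2 group (33.5 ± 10.3 CPM) and highest in the Isg15 group (93.8 ± 18.4 CPM), and these did not overlap. In the Lgals7 group Wnt10a stood at 75.4 ± 18.1 CPM, so the group lowest for Sfrp5 was not low for Wnt10a. Fzd2 ranged from 333 ± 23.0 to 663 ± 78.8 CPM in the same 2 groups as Sfrp5. The groups were defined from these cells and are described without a test.

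**Figure D2:**
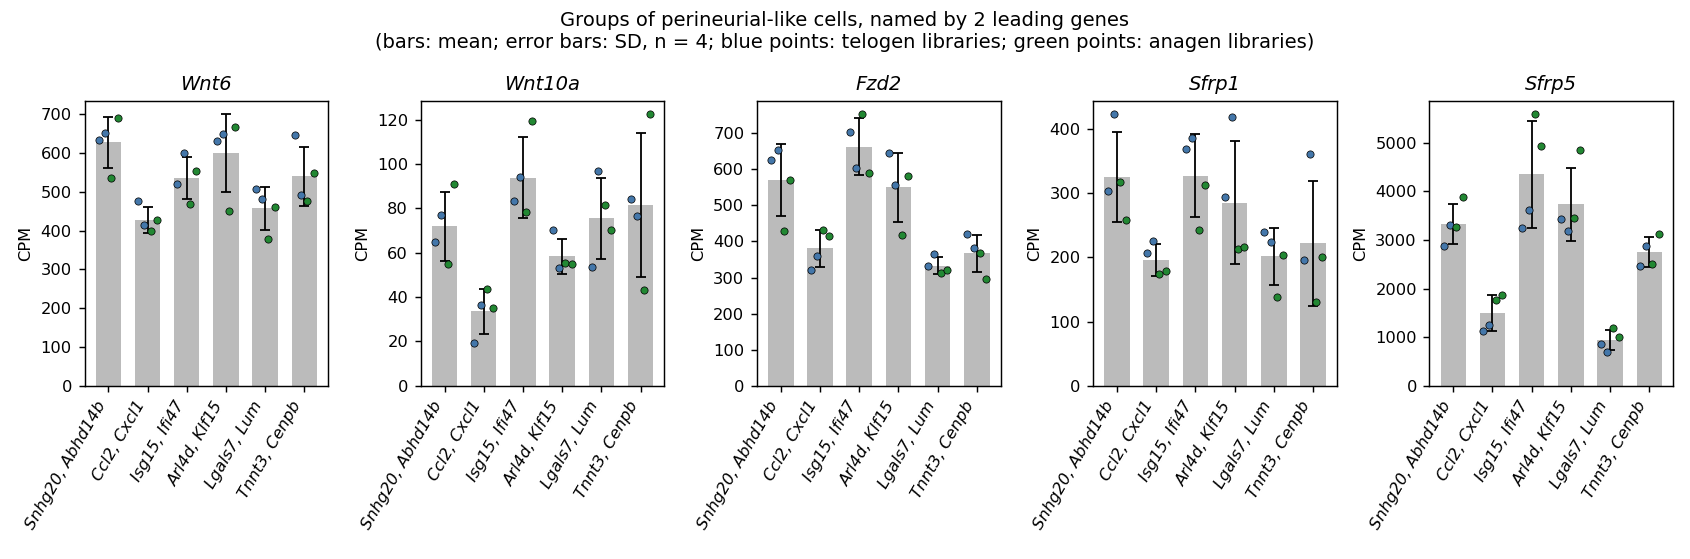
CPM of 5 genes (panels) in the 6 groups of perineurial-like cells with over 100 WT cells, named by 2 leading genes. Bars are means and error bars SD of 4 WT libraries, blue points are telogen and green points anagen libraries; Sfrp5 is lowest in the Lgals7 and Ccl2 groups (942 and 1498 CPM), whereas Wnt6 stays between 428 and 627 CPM.

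From telogen to anagen no member was called in any population. In perineurial-like cells 0 of 9 members tested were called beside 0.895% of all genes. Sfrp5 was 2202 and 2532 CPM in telogen and 2673 and 3152 CPM in anagen, without overlap (log2 fold change 0.38 ± 0.12 SE, adjusted p = 0.22). Sfrp1 was 272 and 337 CPM in telogen and 219 and 230 CPM in anagen, also without overlap (-0.36 ± 0.14, adjusted p = 0.278). These 2 had an unadjusted p under 0.05. Wnt6 (log2 fold change -0.11 ± 0.14 SE), Wnt10a (0.21 ± 0.20), Fzd2 (-0.08 ± 0.11) and Fzd4 (-0.12 ± 0.15) had smaller differences. Fzd2 and Fzd4 also had no overlap between the stages. Of all genes tested in these cells, 48.1% had none. With 2 mice a stage, a p that misses the threshold does not show equal levels.

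In vessels, 0 of 3 members were called in artery-like cells (0.562% of all genes called), 0 of 2 in vein-like (0.959%), 0 of 1 in capillary-like (0%) and 0 of 3 in lymphatic-like cells (1.32%). The artery-like values of Rspo3 were 21.0 and 10.2 CPM in telogen and 4.8 and 6.09 CPM in anagen (log2 fold change -1.42 ± 0.39 SE, adjusted p = 0.13). Fzd4 in artery-like cells was 113 and 139 CPM in telogen and 85.6 and 77.1 CPM in anagen (-0.52 ± 0.16, adjusted p = 0.162). Neither pair overlapped. Without telogen 2 the artery-like Rspo3 difference was called (-1.83, adjusted p = 0.0381). At an unadjusted p under 0.05 the vascular members were artery-like Rspo3 and Fzd4 and vein-like Fzd4 (-0.45 ± 0.19, adjusted p = 0.327). In pericyte-like cells 0 of 2 members were called (0.0454% of all genes) and in fibroblast-like cells 0 of 7 (0.289%), none with an unadjusted p under 0.05. DESeq2 called 0 members in each of the 7 populations. Of the other 84 genes on the Wnt lists, Sox17, a factor that interacts with beta-catenin and marks arteries, was called in perineurial-like cells (3.25 ± 0.47, adjusted p = 0.0249; 1.2 to 1.82 CPM in telogen, 10.1 to 18.4 in anagen) and in lymphatic-like cells (2.74 ± 0.51, adjusted p = 0.0388). Endothelial cells held far more Sox17, with 155 and 179.9 CPM in telogen. In perineurial-like cells the 8 endothelial markers, all with UMIs, summed to 393 and 442 CPM in telogen and to 685 and 635 CPM in anagen, without overlap. The 8 artery markers summed to 54.9 and 74.1 CPM in telogen and 58.0 and 102 CPM in anagen. The part of either in the Sox17 value was not tested.

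In perineurial-like cells of the Alk1 KO libraries 4 of the 8 members tested were called, all lower than in telogen. Over all genes 21.4% were called and 11.3% were called lower, so such changes were common there. Both ligands were among them. Wnt6 was 266 and 326 CPM in the KO libraries, below 537 and 547 CPM in telogen (log2 fold change -0.98 ± 0.21 SE, adjusted p = 0.00462). Wnt10a was 6.34 and 27.7 CPM, from 2 and 5 UMIs, below 50.7 and 67.8 CPM in telogen (-2.15 ± 0.51, adjusted p = 0.00888). The anagen values of both genes also lay above the KO values. The Wnt6 call was lost without telogen 1 (-1.04, adjusted p = 0.0534) or telogen 2 (-0.99, adjusted p = 0.0643), and the Wnt10a call without KO 1 (-1.36, adjusted p = 0.109).

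**Figure D3:**
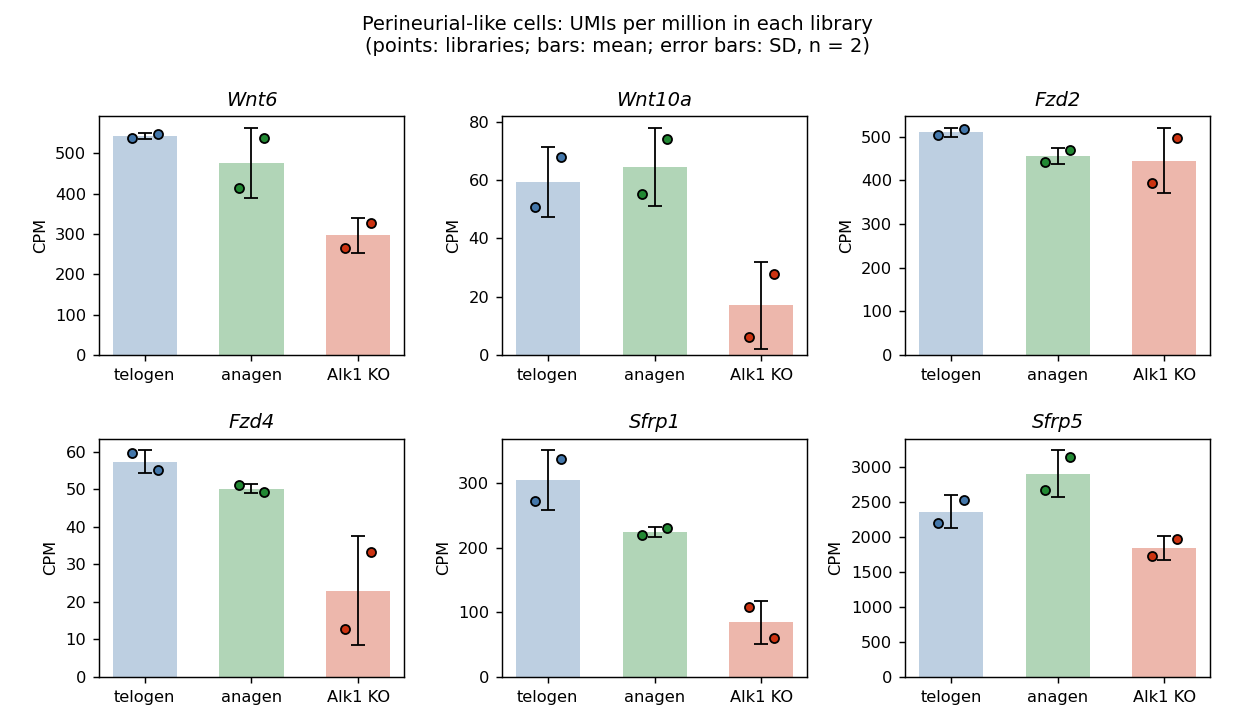
CPM of 6 genes (panels) in perineurial-like cells of each library (points), with group means (bars) and SD (error bars, n = 2). The KO points of Wnt6, Wnt10a, Fzd4 and Sfrp1 lie below all 4 WT points, those of Sfrp5 (1731 and 1969 CPM) do too without a call, and those of Fzd2 overlap the WT range.

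Sfrp1 had the most stable KO change in perineurial-like cells. It was 108 and 60.8 CPM in the KO libraries, from 34 and 11 UMIs, against 272 and 337 CPM in telogen and 219 and 230 CPM in anagen. Its log2 fold change was -1.86 ± 0.28 SE (adjusted p = 0.000498), and the call held in every alternative run. Fzd4 was 12.7 and 33.2 CPM, from 4 and 6 UMIs, against 59.6 and 55.2 CPM in telogen (-1.58 ± 0.40, adjusted p = 0.013). The Fzd4 call was lost without telogen 1 (-1.55, adjusted p = 0.0508), without KO 1 (-1.04, adjusted p = 0.172) and with a stricter cell filter (-1.37, adjusted p = 0.054).

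Sfrp5 and Fzd2 were not called in KO perineurial-like cells in the main run. Sfrp5 stood at 1731 and 1969 CPM in the KO libraries against 2202 and 2532 CPM, without overlap and without a call (-0.46 ± 0.21, adjusted p = 0.138). With no filter on low counts Sfrp5 was called lower (-0.60 ± 0.21, adjusted p = 0.0385). Its change was -0.52 without KO 1 and -0.51 without KO 2. Fzd2 was 393 and 498 CPM against 503 and 517 CPM, also without overlap (-0.31 ± 0.20, adjusted p = 0.304). Of all genes tested, 63.6% did not overlap between these 2 groups. Rspo3 (0 and 3 UMIs) and Axin2 (2 and 6 UMIs) were too sparse to describe. In the largest group of perineurial-like cells, led by Snhg20 with 28 and 26 KO cells, Wnt6 was 310 and 429 CPM against 633 and 653 in telogen, and Sfrp1 100.1 and 73.5 CPM against 303 and 423. The values of this 1 group had the order of the whole population.

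Other markers moved in the same cells. The 8 fibroblast markers, all with UMIs in telogen and 5 to 7 of them in the KO libraries, summed to 4311 and 4619 CPM in telogen perineurial-like cells and to 570 and 675 CPM in the KO ones. The 15 immune markers (14 with UMIs in telogen, 3 in KO) summed to 85.1 and 118 CPM in telogen, 19.0 and 22.1 CPM in KO, and 10.1 and 349 CPM in anagen. The KO population also held 80 and 55 cells against 547 and 855. The paper lists Col1a1 and Col3a1 of the fibroblast markers as lower in its Alk1 KO perineurial cells. It also lists Krt19, Lypd2 and Sbspon of the perineurial markers, so these marker sums do not measure cell identity alone. The part of these differences in the calls was not tested.

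Endothelial cells of the KO libraries had more Fzd4. In lymphatic-like cells Fzd4 was 79.9 and 69.3 CPM against 22.2 and 26.5 CPM in telogen and 21.7 and 23.4 CPM in anagen. The log2 fold change was 1.55 ± 0.17 SE (adjusted p = 0.00022), and the call held in every alternative. It was the 1 member called of 3 tested there, where 24.7% of all genes were called. In the group of lymphatic-like cells with Lyve1 and Mmrn1 among its leading genes, markers of lymphatic capillaries, Fzd4 was 117 and 107 CPM in KO against 26.0 and 42.8 CPM in telogen. This group held 337 and 432 KO cells of 696 and 847, against 132 and 130 of 545 and 575 in telogen. The group led by Ccl7 and Ccl2 had 30.04 and 34.4 CPM in KO against 38.2 and 43.4 CPM, so Fzd4 was not higher in every group. Vein markers summed to 831 and 892 CPM in KO lymphatic-like cells against 368 and 438 CPM in telogen, and capillary markers to 1446 and 1711 against 691 and 1012 CPM. Their part was not tested.

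**Figure D4:**
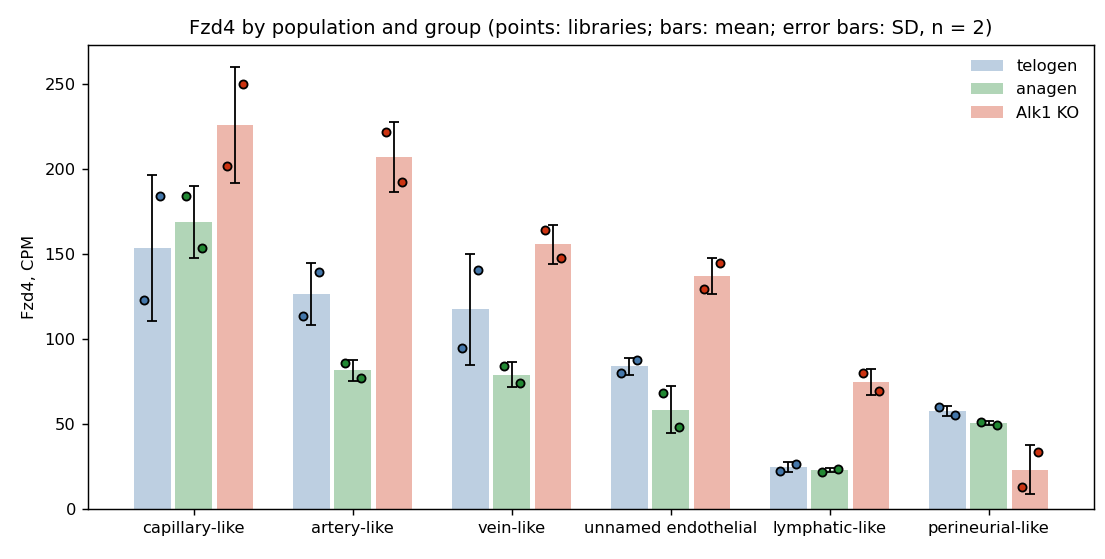
Fzd4 in CPM in 5 endothelial populations and in perineurial-like cells, by group (colours) and library (points), with means (bars) and SD (error bars, n = 2). KO points lie above all WT points in each endothelial population and below all WT points in perineurial-like cells (12.7 and 33.2 CPM).

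In artery-like cells 2 of 3 members were called beside 18.3% of all genes. Fzd4 was 222 and 192 CPM in KO against 113 and 139 CPM in telogen (log2 fold change 0.72 ± 0.16 SE, adjusted p = 0.00854), a call lost without telogen 1 (0.57, adjusted p = 0.0816) or KO 1 (0.60, adjusted p = 0.0631). Sfrp1 was 6.13 and 1.58 CPM against 14.0 and 25.2 CPM (-2.34 ± 0.57, adjusted p = 0.0123). That call was lost without telogen 2 (-1.88, adjusted p = 0.173) or KO 2 (-1.62, adjusted p = 0.108), and with DESeq2 (adjusted p = 0.0568). In the Gja5 group, where arterial Sfrp1 was found, it was 15.2 and 1.92 CPM in KO against 39.7 and 48.1 CPM in telogen. Markers moved in the same artery-like cells. The 8 artery markers, all with UMIs, summed to 2484 and 2485 CPM in KO against 3445 and 3701 CPM in telogen. The 7 capillary markers, 6 or 7 with UMIs, summed to 10501 and 11007 CPM against 7412 and 7670 CPM, within the anagen range of 6403 to 11821 CPM. The 11 pericyte markers summed to 24.4 and 32.4 CPM, with 5 to 7 detected, against 141 and 284 CPM, with 10 detected. The part of these in the Fzd4 and Sfrp1 values was not tested. In capillary-like cells 0 of 1 members was called beside 30.2% of all genes. Fzd4 there was 202 and 250 CPM against 123 and 184 CPM (0.40 ± 0.22, adjusted p = 0.184), with 0 members at an unadjusted p under 0.05 and 0 called by DESeq2.

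In vein-like cells 1 of 2 members was called beside 22.5% of all genes. Rspo3 was 8.23 and 3.35 CPM in KO, from 11 and 3 UMIs, against 15.8 and 47.6 CPM in telogen (log2 fold change -2.33 ± 0.55 SE, adjusted p = 0.00608). Without telogen 2 the change was -1.39 with an adjusted p of 0.21. In the Htr2b group, which held most vein Rspo3, it was 14.1 and 7.04 CPM in KO against 52.4 and 113 CPM in telogen. Fzd4 of vein-like cells was 164 and 148 CPM against 94.3 and 140 CPM (0.40 ± 0.20, adjusted p = 0.161).

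The fibroblast-like cells of the KO libraries stood apart from those of telogen, as their summed fibroblast markers show above, and they numbered 29 and 54. Of 7 members tested 5 were called, beside 37.3% of all genes, and 4 were lower beside 20.7%. Sfrp4 fell from 347 and 752 CPM in telogen to 7.20 and 0 CPM, with 2 UMIs against 2959. This is a 213-fold ratio with a counting interval of 59.0 to 1762 (adjusted p = 0.000229), and the call held in every alternative that was run. Sfrp5 had 36 and 80 UMIs in telogen and 0 in KO, at least 5.58-fold lower with 3 UMIs as the floor over the group (adjusted p = 0.0068). Its telogen level of 15.4 and 28.0 CPM was near the 4.37 and 14.0 CPM of immune-like cells. The Sfrp5 call was lost when all 6 libraries were fitted together (adjusted p = 0.0518).

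The other fibroblast-like calls were each lost in several alternatives. Wnt6 was 0 and 10.6 CPM in KO against 22.3 and 25.2 CPM in telogen (log2 fold change -2.20 ± 0.65 SE, adjusted p = 0.0283). Sfrp1 was 75.5 and 55.3 CPM against 97.4 and 98.3 CPM (-0.97 ± 0.27, adjusted p = 0.0215). Axin2 was the 1 member that rose, with 25.2 and 27.6 CPM from 7 and 13 UMIs against 6.01 and 1.75 CPM (2.45 ± 0.61, adjusted p = 0.0146). Without telogen 1 or telogen 2 Wnt6 was at -2.35 (adjusted p = 0.103) or -2.22 (0.178) and Sfrp1 at -0.98 (0.107) or -1.01 (0.0995), so their size held while the call was lost. Axin2 moved to 3.48 (adjusted p = 0.113) without telogen 1 and to 1.71 (0.313) without telogen 2. At a Leiden resolution of 1.2 Wnt6 was at -1.14 (adjusted p = 0.083). Without KO 2 Sfrp1 was at -0.68 (adjusted p = 0.101) and Axin2 at 2.42 (0.085), and with DESeq2 Wnt6 was at -2.29 (adjusted p = 0.0827) and Sfrp1 at -0.94 (0.101). Sfrp2 had 0 KO UMIs and could not be tested, and its floor of 4.01 CPM lies above the 1.29 CPM of telogen 1. Adipocyte markers summed to 7.19 and 385 CPM in KO fibroblast-like cells against 1.29 and 1.40 CPM in telogen. Dermal papilla markers summed to 43.2 and 199.9 CPM against 55.8 and 72.8 CPM, and the part of either was not tested.

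**Figure D5:**
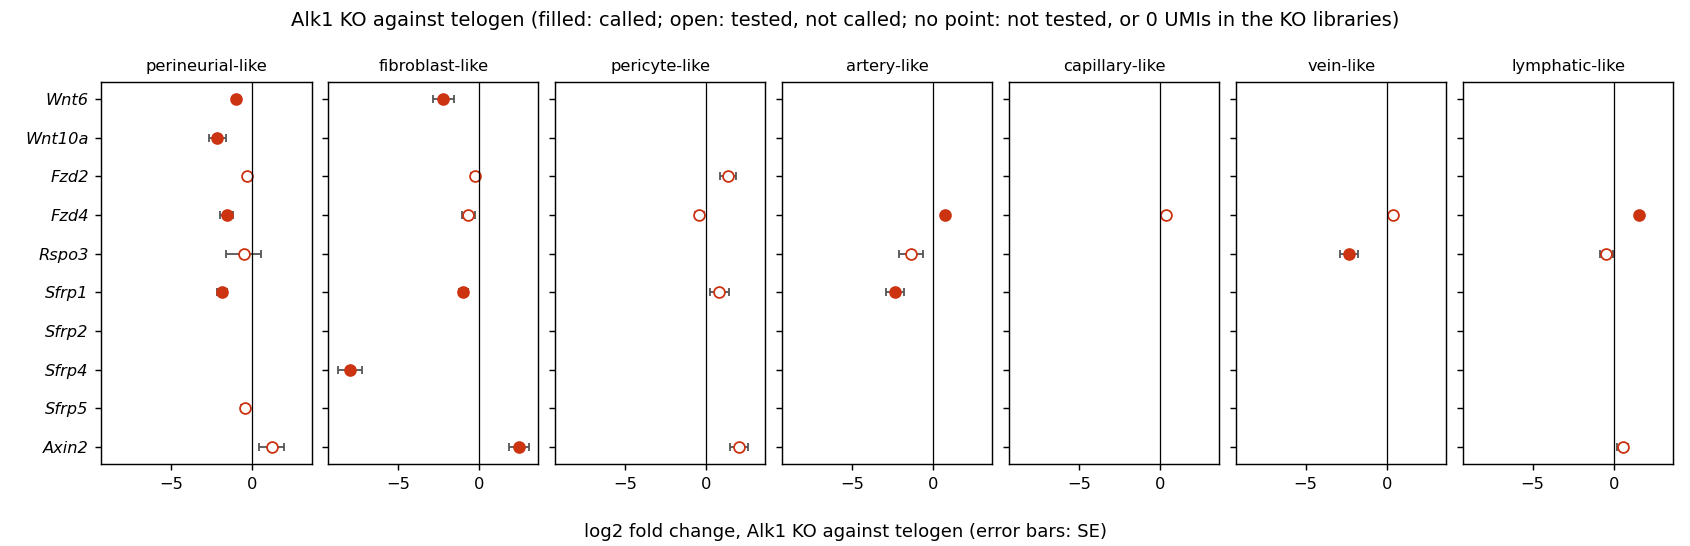
Log2 fold change of the members in Alk1 KO against telogen libraries with SE (error bars), in 7 populations (panels), filled where called and open where not. Sfrp1 lies at -1.86 in perineurial-like and Fzd4 at 1.55 in lymphatic-like cells, and Sfrp5 of fibroblast-like cells is left out because the KO libraries held 0 UMIs.

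In pericyte-like cells 0 of 4 members were called by edgeR and 0 by DESeq2, beside 6.01% of all genes. Axin2 was 15.5 and 37.3 CPM in KO, from 5 and 8 UMIs, against 5.34 and 5.66 CPM (log2 fold change 2.03 ± 0.56 SE, adjusted p = 0.0708). Fzd2 was 18.6 and 23.3 CPM against 6.87 and 7.78 CPM (1.37 ± 0.50, adjusted p = 0.126). These 2 had an unadjusted p under 0.05.

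The difference between the perineurial-like and the endothelial response was tested as an interaction. For the KO, 1 of 8 members was called beside 6.69% of all genes. Fzd4 differed by -2.30 ± 0.41 on the log2 scale (SE, adjusted p = 0.00657), being lower in KO perineurial-like cells and higher in KO endothelial cells (133 and 121 CPM against 73.0 and 97.6 CPM). The median over all genes in this fit was -0.32, and without KO 1 the Fzd4 difference was -1.48 with an adjusted p of 0.169. Wnt6 (-1.95 ± 0.55, adjusted p = 0.0518) was not called. Perineurial-like and endothelial sums of 1 library come from the same mouse, and with the library as a block Wnt6 (-1.94 ± 0.58, adjusted p = 0.0221) and Sfrp5 (2.04 ± 0.60, adjusted p = 0.021) were called along with Fzd4. Endothelial counts of both genes were low. Wnt6 had 1 telogen and 23 KO UMIs in lymphatic-like cells, but 5 and 0 in vein-like cells. Sfrp5 had 19, 9 and 11 telogen UMIs in artery-, vein- and capillary-like cells and 0 in KO. Its positive difference does not mean a rise, since KO perineurial-like cells also had less Sfrp5 than telogen ones. For the stage, 0 of 9 members were called by edgeR beside 0.198% of all genes, with 0 at an unadjusted p under 0.05.

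The rest of the pathway was read from lists of 94 genes, of which 84 are no members. In KO perineurial-like cells both member ligands and Wnt5a were called lower, beside 11.3% of all genes. Only 5 of 20 listed ligands passed the filter on low counts. A gene can pass it through the telogen cells alone, so no count of lower genes is read from these lists. Wnt5a, a ligand of beta-catenin-independent signalling, had 275 UMIs in telogen (27.6 and 33.9 CPM) and 0 in KO, where 3 UMIs would be 6.04 CPM. Wls, which carries Wnt ligands to the cell surface, was 38.7 and 57.1 CPM in KO and 115 and 123 CPM in telogen (log2 fold change -1.33 ± 0.28 SE, adjusted p = 0.00409). Of the tested inhibitors Sfrp1 and Sostdc1 were lower. Sostdc1, an inhibitor that binds Lrp receptors, was at 49.8 and 82.4 CPM against 208 and 220.4 CPM (-1.70 ± 0.26, adjusted p = 0.000516). Of 15 receptors only Fzd4 was called, and of 14 intracellular components none, beside 21.4% of all genes. Among 8 feedback and target genes Ccnd1 was lower (-2.37 ± 0.36, adjusted p = 0.000532) and Myc higher (3.08 ± 0.53, adjusted p = 0.00139), so these targets did not move together. Ccnd1, a cyclin, was called lower in KO in all 7 populations, by -1.70 in lymphatic-like to -3.56 in pericyte-like cells.

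In KO lymphatic-like cells the receptors called were all higher, with Fzd9 (log2 fold change 2.59 ± 0.28 SE), Fzd1 (1.56 ± 0.43) and Lrp5 (1.12 ± 0.19) beside Fzd4. Of all genes 11.7% were called higher. A gene can pass the filter on low counts through the KO cells alone, so no count of receptors is read. The inhibitors Dkk3, which is secreted (-2.66 ± 0.25), and Apcdd1, which sits in the membrane (-2.25 ± 0.27), and the Fzd4 ligand Ndp, which encodes Norrin (-2.33 ± 0.46), were lower. Ndp was 1.16 to 2.17 CPM in KO and 6.80 to 9.37 CPM in telogen. KO lymphatic-like cells also had a larger share of the Lyve1 group and higher vein and capillary marker sums, as given above for Fzd4. The part of these in the changes of the other genes was not tested. In KO artery-like cells the inhibitor Dkk2 was lower (-3.68 ± 0.29) together with Sfrp1, beside 10.1% of all genes called lower, and Fzd9 was higher (3.08 ± 0.43). Within WT libraries perineurial-like cells also had more Rspo1 (8.44 ± 0.17), Sostdc1 (7.48 ± 0.22), Ror1 (7.01 ± 0.30), Ror2 (6.22 ± 0.32) and Fzd7 (5.23 ± 0.13) than endothelial cells, and less Dkk2 (-6.10 ± 0.41) and Fzd6 (-5.40 ± 0.32). In this contrast 7 of 20 listed ligands, 17 of 19 receptors and 7 of 16 inhibitors passed the filter on low counts. A gene can pass it through 1 population alone, so no counts of higher or lower genes are read from these lists. Wnt7a (7.07 ± 0.52), Wnt2 (5.25 ± 0.69) and Wnt4 (3.14 ± 0.18) were higher in lymphatic-like than in blood endothelial cells. Only 5 of 20 listed ligands passed the filter on low counts there, which a ligand can pass through the lymphatic-like cells alone, so no count is read from them.

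The genes most like each member over 38 sums of WT cells per library and population were read from Pearson's r of log2(CPM + 1). These sums share libraries and differ in depth, so r is a description. Wnt6 ran closest with 2810433D01Rik (0.969), Egfl6 (0.967) and Stra6 (0.960), and Wnt10a with Chil1 (0.984), Mansc4 (0.982) and Slc6a13 (0.982). Sfrp5 ran closest with Lypd2 (0.968), Wnt10a (0.957) and Mansc4 (0.956), and Fzd2 with Galnt17 (0.965), Ildr2 (0.959) and Clip4 (0.957). Lypd2 and Slc6a13 are perineurial markers of the list, so this is the population pattern again. For Sfrp4 these were Scara5 (0.960), Cpz (0.956) and Mmp3 (0.95), and for Sfrp1 Fzd1 (0.909), Tmem119 (0.904) and Wfdc1 (0.899). Fzd4 ran with Apbb2 (0.908), Ablim1 (0.898) and Tns2 (0.897). Rspo3 (Gata6 0.798, Me3 0.782 and Foxc1 0.773) and Axin2 (Thnsl1 0.695, Rgs16 0.686 and Ccdc173 0.666) had weaker matches, and Sfrp2 had too few UMIs for one.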

How the data were processed

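Single tdTomato+ cells of dorsal skin from 6 mice were profiled with droplet 3′ RNA-seq (Chromium v3 chemistry). The authors aligned reads to mm10 and deposited raw UMI counts per gene and cell, made with Cell Ranger 6.0.1 per the submitters' processing notes, which also name Seurat 4.0. No normalized values were used. Cells with 200 to 5000 genes and under 10% mitochondrial UMIs were kept.

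Variable genes (3000, without the 94 genes of the Wnt lists) were reduced to 30 principal components in scanpy 1.11.5, corrected between libraries with Harmony, and clustered by Leiden (resolution 0.6, 20 neighbours). A cluster was named from at least 3 markers at a fold of 2 in 25% of its cells. Doublets were kept, and removed with Scrublet in an alternative. Where its automatic threshold marked under 0.5% of a library, the top 5% by score were removed. Counts were summed per library and population, and sums under 10 cells were not tested. edgeR 4.0.16 (filterByExpr, TMM, quasi-likelihood F test) gave log2 fold changes and two-sided p-values adjusted over all genes by Benjamini-Hochberg. A call needed both an adjusted p below 0.05 and a change of more than 1.3-fold. Stage and KO comparisons had 2 libraries a group. Contrasts of populations used the 4 WT libraries with the library as a block. DESeq2 1.42.0 was an alternative. The scripts were tested on simulated counts. Shares of cells used counts thinned to 1500 UMIs, with exact (Clopper-Pearson) intervals of 95%.

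The members and lists were chosen with earlier results of these data known. Genes named beyond the members were Acvrl1, called genes of the Wnt lists (at most 10 rises and 10 falls by fold) and the 3 genes most alike. Equal replicate numbers in different groups do not mark a shared animal, and the labels do not say whether they mark a batch. Each library is 1 mouse per the labels, so p-values of the stage and KO comparisons measure the spread between mice within a group. In the contrasts of populations the library is a block, so p-values measure how the difference within a mouse varies between mice. The main interaction fit had no block and took the sums of 1 mouse as independent, so its p-values mix both. Precision was limited by depth, 1.06e+07 to 4.33e+07 UMIs per library, and by KO cell numbers. Alternatives were other size factors, no filter on low counts, each library left out, doublets removed, a stricter cell filter, other clustering and all 6 libraries in one fit.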

Additional observations from a re-analysis of the deposited data

Results flagged for a closer look

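The response of perineurial-like cells minus that of endothelial cells was tested by an interaction term in edgeR, and the genes below passed it (adjusted p under 0.05). This fit had no library block and took the perineurial-like and endothelial sums of 1 mouse as independent. Of the genes below, only Fzd4 is reported here with the library as a block. For the Alk1 KO, Fzd4 differed by -2.30 on the log2 scale, as given above. Dkk2 differed by 8.5 (adjusted p = 0.0313), with 1.73 and 1.90 CPM in KO and 21.9 and 31.4 CPM in telogen endothelial cells. In perineurial-like cells Dkk2 had 2 KO and 1 telogen UMIs. Wnt5a differed by -10.82 (adjusted p = 0.00423), a fitted value that depends on the prior count because KO perineurial-like cells held 0 UMIs, and it is no bound. Wls differed by -1.12 (adjusted p = 0.0395), with 56.9 and 59.7 CPM in KO and 68.2 and 80.4 CPM in telogen endothelial cells.

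Ror1, a receptor for Wnt5a, differed by -3.03 (adjusted p = 0.0282), with 34 KO and 4 telogen UMIs in endothelial cells. Dkk3 differed by 2.16 (adjusted p = 0.0136), with 4.82 CPM in both KO libraries and 18.2 and 27.4 CPM in telogen endothelial cells. Myc differed by 2.37 (adjusted p = 0.0128), with 79.6 and 87.5 CPM in KO and 49.6 and 60.6 CPM in telogen endothelial cells. Cldn5, a tight junction gene, differed by -2.58 (adjusted p = 0.038), with 3 KO and 262 telogen UMIs in perineurial-like cells. The KO sums of these cells were far smaller, so that 3 KO UMIs are 6.04 CPM. From telogen to anagen Dkk3 differed by 2.33 (adjusted p = 0.0473), with 4.998 and 5.38 CPM in anagen endothelial cells. Lymphatic-like cells, which held nearly all endothelial Dkk3 (45.7 and 70.2 CPM in telogen, 26.2 and 45.6 CPM in anagen), were 545 of 1185 and 575 of 1244 endothelial cells in telogen but 770 of 3339 and 588 of 3913 in anagen. The part of this makeup in the pooled endothelial value was not tested.

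Rspo3 was also high outside the populations compared, in unnamed cells whose leading genes include Mfap4, Twist1, Col16a1 and Gas1. It reached 656 CPM in anagen 2 (96 UMIs in 6 of 31 cells, with 25 in 1 cell) and 66.1 CPM in anagen 1 (8 UMIs in 1 of 33 cells). In the telogen and KO libraries Rspo3 was 19.7 to 26.4 CPM in these cells, from 1 to 5 UMIs.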

How the results depend on the processing

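Of 30 called member values, 18 held in every alternative that tested them and 12 were lost in at least 1. None changed sign. A run in which a gene was not tested, as under the filter on low counts, is not counted as a loss. In the contrast of lymphatic-like with blood endothelial cells, Sfrp1 was tested in 11 alternatives and Axin2 in 12, against 14 for Fzd4. Of 63 uncalled values, 29 had the other sign in at least 1 alternative and 14 were called in at least 1. From telogen to anagen, 92 of 98 alternatives called 0 members. The numbers of members called changed as follows, and the cause was not tested. With no filter on low counts 1 was called for anagen artery-like cells, and for the KO 4 in artery-like, 2 in vein-like, 1 in capillary-like and 2 in lymphatic-like cells and 3 in the interaction. With DESeq2 the KO gave 1 in artery-like and 3 in fibroblast-like cells. In KO fibroblast-like cells 3 were called without doublets and 3 with all 6 libraries in one fit. Without correction between libraries 2 were called in KO lymphatic-like cells, and 1 in the contrast of lymphatic-like with blood endothelial cells, as with the stricter cell filter (1). With 1 library left out, the KO count ranged from 2 to 5 in perineurial-like, 1 to 2 in artery-like, 0 to 1 in vein-like, 1 to 2 in lymphatic-like, 0 to 1 in pericyte-like and 1 to 5 in fibroblast-like cells and 0 to 2 in the interaction. For anagen it ranged from 0 to 1 in artery-like, lymphatic-like and fibroblast-like cells. In such fits the lone library is assumed to vary like the other group. The share of perineurial-like cells with Sfrp5 was 89.2% without thinning and 87.1% at 3000 UMIs. Clustering without correction left too few KO cells for capillary-like and fibroblast-like tests, so these were not run.

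With the replicate number as a block, the KO count in perineurial-like cells was 4 and no count of members called changed in the stage and KO comparisons. The numbers pair nothing in the labels. Deviations of same-numbered libraries correlated at -0.00795 to 0.0129 in perineurial-like cells and at -0.315 to 0.122 over all kept cells. With the library as a block, 3 members were called in the KO interaction. Depth limits Wnt10a, Fzd4, Rspo3 and Axin2 in KO perineurial-like cells, which rest on 3 to 10 UMIs a gene over both libraries.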
